A study of Rattus norvegicus with 8 samples.

Results

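The 10 genes described here are Toll-like receptors, a pair of their accessory proteins and their main adaptor: Tlr2, Tlr3, Tlr4, Tlr5, Tlr6, Tlr7, Tlr9, Cd14, Ly86 and Myd88. They were chosen by gene symbol, through probe sets to which the platform annotation gave exactly 1 symbol. This found 9 of the 10 genes among 18166 genes tested, each with 1 probe set, and Tlr9 is not analysed here. Messenger RNA was measured on 8 Affymetrix Rat Gene 2.0 ST arrays of thoracic spinal cord from adult male rats of the Long Evans strain, about 175 days old and weighing 400 g. The cord had been injured at thoracic level (SCI) in 4 samples, and the other 4 had undergone only laminectomy (sham). All rats had 4 weeks of recovery on chow with 17% fat and then a high-fat diet with 40% fat, so both groups carried the diet and no comparison concerns it. The stated total of 8 weeks may refer to the diet or to the whole study. The sampled piece is T10-11 in one label and T11-12 in another, and the lesion level is not stated in the labels. The design text speaks of 10 rats, and the labels do not tie the 8 arrays to numbered animals, so p-values measure the spread between these samples, which may be technical. Replicate numbers 1 to 4 follow accession order in each group and pair nothing.

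Values are deposited log2 signals, so a difference of 1 is a factor of 2, and each probe set has its own response, so a gene is called dim only by where its probe set's signal lies against the median of all genes and no order of expression between genes is given. The array medians lay between 3.73 and 3.81, and the median gene had a level of 4.74. Arrays of the same group correlated at 0.986 to 0.991 over genes, and arrays of different groups at 0.971 to 0.983. The first principal component, with 45.6% of the variance, parted SCI from sham. The second, with 11.2%, set SCI 3, sham 1 and sham 2 apart from the other 5 arrays, and results that rest on those 3 arrays are given with and without them. The median difference of all genes was -0.01. Of genes linked to thoracic position, 4 Hox genes had mean levels of 6.92 to 7.16 on the sham arrays and 6.79 to 6.94 on the SCI arrays. No other cord level was measured, so these levels cannot place the sampled piece or show that the groups match in position.

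Toll-like receptors are membrane proteins that recognise molecules of microbes and of damaged tissue. Tlr2, Tlr4, Tlr5 and Tlr6 act at the cell surface, and Tlr3, Tlr7 and Tlr9 in endosomes, where they meet nucleic acids. Nearly all of them signal through Myd88 to NF-κB, while Tlr3 uses the adaptor Ticam1 (TRIF), and in the cord microglia and other macrophages are their best known carriers.

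After SCI, 8 of the 9 measured genes had higher signal than after sham, none was lower (all 9 differences were above 0), and Tlr6 was not called. A call is an adjusted p under 0.05 in limma with Benjamini-Hochberg adjustment over all 18166 genes. Among all genes, 7.10% were called higher and 7.06% lower. The SCI and sham arrays did not overlap for 8 of the 9 genes, against 9.36% of all genes with every SCI array above every sham array. Cd14 rose 3.25-fold and Tlr7 rose 2.77-fold, the 2 largest of the 9 changes, and Tlr3 had the smallest of the called changes at 1.37-fold. The median difference of the 9 genes was 0.76. Without SCI 3, sham 1 and sham 2, 5 of the 9 genes were called (Tlr2, Tlr5, Tlr7, Cd14 and Myd88), and no difference changed sign. Over all 18166 genes, 563 were called higher in that setting, against 1290 with all arrays. In bulk tissue, more cells of a type and more RNA per cell cannot be told apart.

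The promoters of 4 genes are shown because their signal rose and because they differ in short motifs of factors that were also measured. Each run holds the 250 bases before and the 50 bases after the annotated start of the RefSeq gene, in the rat build GRCr8, read 5′ to 3′ on the gene's strand. Capitals mark 2 kinds of match searched on both strands: the PU-box letters GAGGAA, a core of the sites of the myeloid factor PU.1, and the ISRE-like letters GAAANNGAA (N being any base), the layout of interferon response elements. The Cd14 run is chr18:28611109-28611408 (minus strand), the Tlr7 run is chrX:30644176-30644475 (plus strand), the Tlr4 run is chr5:85160997-85161296 (plus strand) and the Myd88 run is chr8:127956181-127956480 (minus strand).
Cd14: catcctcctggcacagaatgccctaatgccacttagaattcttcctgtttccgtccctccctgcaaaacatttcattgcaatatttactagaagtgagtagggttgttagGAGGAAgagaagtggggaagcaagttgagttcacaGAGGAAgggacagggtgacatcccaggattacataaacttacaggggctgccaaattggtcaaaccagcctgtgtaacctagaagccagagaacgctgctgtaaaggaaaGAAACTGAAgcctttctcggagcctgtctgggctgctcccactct
Tlr7: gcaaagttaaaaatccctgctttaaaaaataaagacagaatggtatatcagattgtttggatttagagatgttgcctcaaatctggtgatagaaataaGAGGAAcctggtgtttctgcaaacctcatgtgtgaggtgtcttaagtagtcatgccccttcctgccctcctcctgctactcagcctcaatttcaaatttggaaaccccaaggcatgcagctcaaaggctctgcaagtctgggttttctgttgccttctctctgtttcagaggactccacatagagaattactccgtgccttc
Tlr4: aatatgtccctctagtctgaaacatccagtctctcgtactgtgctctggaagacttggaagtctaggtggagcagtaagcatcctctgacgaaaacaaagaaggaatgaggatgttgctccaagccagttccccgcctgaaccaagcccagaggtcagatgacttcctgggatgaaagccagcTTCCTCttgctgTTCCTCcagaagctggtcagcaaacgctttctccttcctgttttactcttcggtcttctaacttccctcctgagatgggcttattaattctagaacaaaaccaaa
Myd88: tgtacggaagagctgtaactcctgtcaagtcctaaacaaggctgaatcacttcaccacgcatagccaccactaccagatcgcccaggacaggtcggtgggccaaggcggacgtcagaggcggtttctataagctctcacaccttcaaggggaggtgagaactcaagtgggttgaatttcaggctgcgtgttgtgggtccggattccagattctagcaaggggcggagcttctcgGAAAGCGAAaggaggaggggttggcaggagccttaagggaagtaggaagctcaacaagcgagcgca

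Positions are counted from the annotated start, which is 0. In Cd14 the PU-box letters began at -140 and -105, and 1 ISRE-like match began at 5. In Tlr7 they began at -152, and in Tlr4 they lay on the other strand at -67 and -55. The Myd88 run held no PU-box letters and 1 ISRE-like match, at -16. A promoter was found for 8 of the 9 measured genes, all but Ly86. PU-box letters were in 5 of these 8 (Tlr3, Tlr4, Tlr6, Tlr7 and Cd14) and in 27.6% of all 33469 promoters of the same length in the RefSeq table. The ISRE-like letters were in 2 of the 8 (Cd14 and Myd88) and in 9.71% of all promoters. The search was first run with 1 more A at the end of these letters, a form found in 1 of the 8 (Myd88) and in 3.92% of all promoters, and was then shortened so that the letters could be printed. The promoters of Tlr2 and Tlr5, which were also called higher, held neither kind of match and are not shown. A match is a description of letters and not of a bound site. Spi1, which encodes PU.1, rose by 1.56 (SE 0.13, adjusted p 5.6e-05 in limma). It is also among the pan-myeloid markers described below, all of which rose, and a link to these promoters was not tested.

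**Figure D1:**
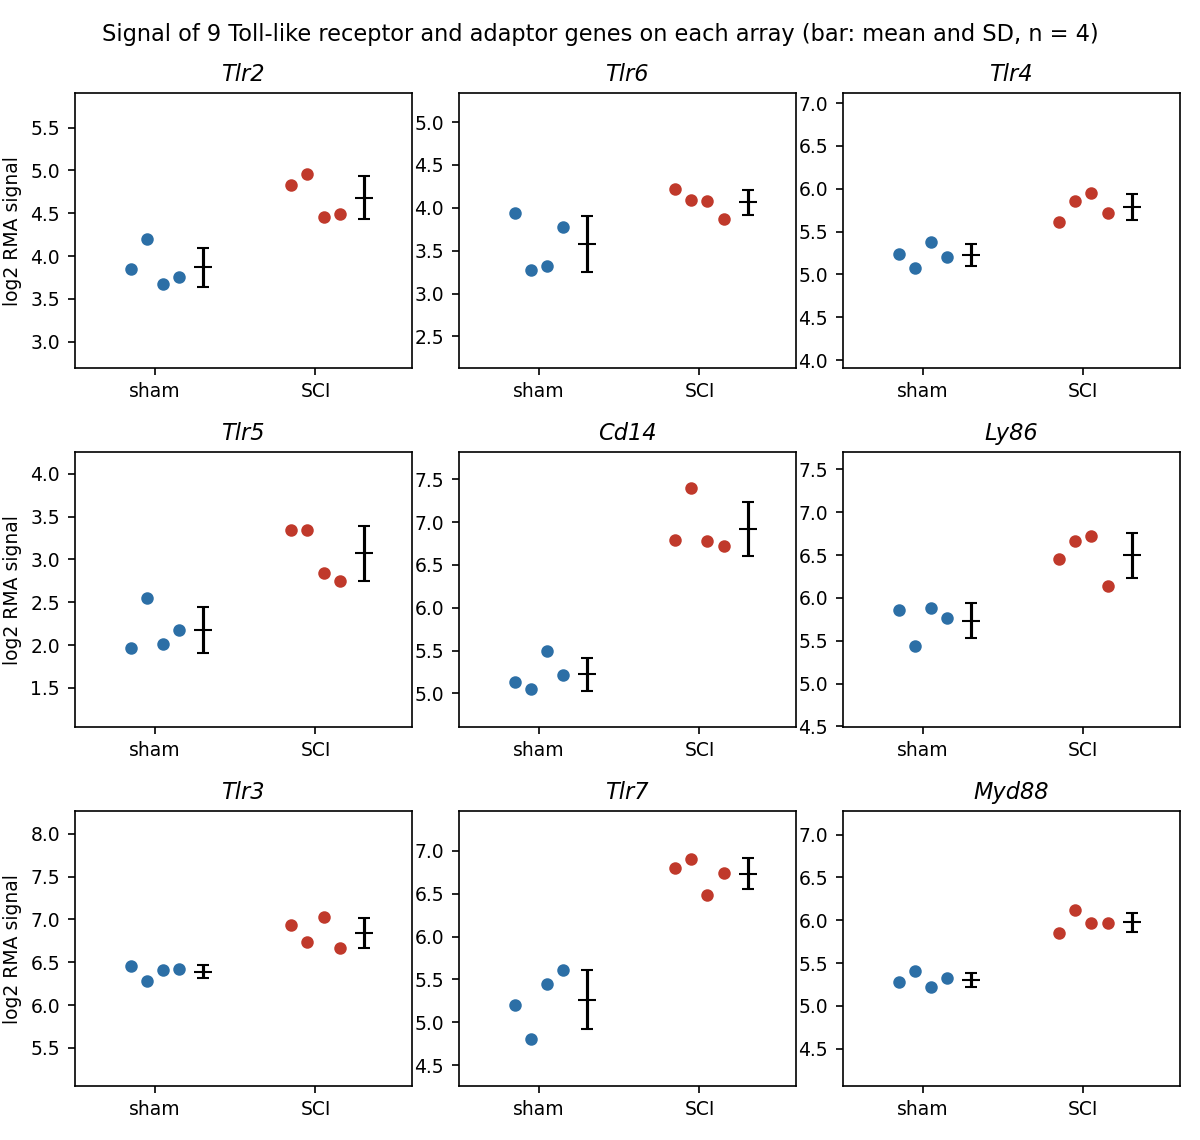
Each panel plots the log2 signal of 1 gene on the 4 sham and the 4 SCI arrays, each point an array and each bar a group mean with its SD (n = 4). The groups lie apart for every gene but Tlr6, where sham 1 at 3.94 lies above SCI 4 at 3.86.

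Among the receptors of the cell surface, Tlr2 binds bacterial lipoproteins as a pair with Tlr1 or Tlr6. Its log2 signal on SCI arrays 1 to 4 was 4.83, 4.95, 4.45 and 4.49, and on sham arrays 1 to 4 it was 3.85, 4.20, 3.68 and 3.76. The lowest SCI array lay above the highest sham array, and sham 2 was the highest of its group. Tlr2 rose from 3.87 ± 0.23 to 4.68 ± 0.25 (SD, n = 4 each), a difference of 0.81 (SE 0.15, 95% interval 0.48 to 1.14) with an adjusted p of 0.0052 in limma. The call held under every setting that kept the gene.

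Tlr6, the partner of Tlr2 for diacylated lipopeptides, read 4.22, 4.09, 4.08 and 3.86 on the SCI arrays and 3.94, 3.28, 3.32 and 3.78 on the sham arrays. The groups overlapped, with sham 1 inside the SCI range and the sham arrays in a lower and a higher pair. The difference was 0.49 (95% interval 0.14 to 0.83), with an adjusted p of 0.067 in limma. Without sham 1 it was 0.61 and passed the test, with an adjusted p of 0.027. Tlr1, the other partner of Tlr2, differed by 0.05 (95% interval -0.15 to 0.25, adjusted p 0.80). Tlr10 differed by 0.32 (adjusted p 0.33). Tlr6, Tlr1 and Tlr10 follow each other on chromosome 14 in the RefSeq table and are similar in sequence, so signal may be shared between their probe sets and the split between them is uncertain.

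Tlr4 senses lipopolysaccharide together with Ly96 (MD-2) and Cd14. It read 5.61, 5.86, 5.95 and 5.72 on the SCI arrays, and 5.24, 5.07, 5.38 and 5.20 on the sham arrays. All SCI arrays were above all sham arrays, with SCI 1 the lowest of its group and sham 3 the highest of the other. The mean moved from 5.22 ± 0.13 to 5.78 ± 0.15 (SD, n = 4 each), a rise of 0.56 (SE 0.11, 95% interval 0.32 to 0.80, adjusted p 0.0067 in limma). Without SCI 3, sham 1 and sham 2 the difference was 0.44 with an adjusted p of 0.11.

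Tlr5, the receptor of bacterial flagellin, was dim: it read 3.34, 3.34, 2.85 and 2.75 after SCI and 1.96, 2.55, 2.02 and 2.18 after sham. The groups did not overlap, and sham 2 came closest to the SCI arrays. Tlr5 rose by 0.89 (SE 0.17, 95% interval 0.51 to 1.28, adjusted p 0.0069 in limma), or 1.86-fold. Tlr2, Tlr5 and Tlr6 lay below the median level of all genes. The remaining 6 genes were all called higher when only genes at or above that level were tested.

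Of the accessory proteins, Cd14, which hands lipopolysaccharide and other ligands to Tlr4 and Tlr2, read 6.80, 7.39, 6.78 and 6.72 on the SCI arrays and 5.14, 5.05, 5.50 and 5.21 on the sham arrays. More than 1 log2 unit separated the lowest SCI array from the highest sham array, and SCI 2 stood above the other SCI arrays. The mean moved from 5.22 ± 0.19 to 6.92 ± 0.32 (SD, n = 4 each), a difference of 1.70 (SE 0.16, 95% interval 1.35 to 2.05, adjusted p 1.1e-04 in limma). Without SCI 2 it was 1.54, with an adjusted p of 1.4e-04.

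Ly86 (MD-1) binds Cd180 (RP105), a receptor relative that tunes Tlr4 signalling in B cells and macrophages. Its signal was 6.45, 6.66, 6.72 and 6.14 after SCI and 5.86, 5.44, 5.89 and 5.76 after sham. The groups did not overlap, and SCI 4 was nearest to the sham arrays. Ly86 rose by 0.76 (SE 0.15, 95% interval 0.43 to 1.09, adjusted p 0.0069 in limma), and without SCI 3, sham 1 and sham 2 it differed by 0.60 with an adjusted p of 0.096. Its partner Cd180 rose by 0.75 (SE 0.14, adjusted p 0.0055). That call was also lost without the 3 arrays, at an adjusted p of 0.088.

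Of 3 further co-receptor and ligand transfer genes tested, 2 rose (Cd180 and Ly96). Ly96, which completes the lipopolysaccharide receptor with Tlr4, rose by 1.30 (SE 0.15, adjusted p 3.9e-04), from 2.42 to 3.72. Lbp, the plasma protein that carries lipopolysaccharide to Cd14, varied widely within groups, with SDs of 1.09 after sham and 0.85 after SCI. Its difference was 1.06 (95% interval -0.10 to 2.22, adjusted p 0.23).

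In the endosome, Tlr3 binds double-stranded RNA. It read 6.94, 6.74, 7.03 and 6.66 on the SCI arrays and 6.45, 6.29, 6.41 and 6.42 on the sham arrays. The groups were apart, but SCI 4 lay close above the sham range, which was narrow. Tlr3 rose by 0.45 (SE 0.11, 95% interval 0.22 to 0.69, adjusted p 0.017 in limma). The call was lost without SCI 1 (adjusted p 0.052) and without SCI 3, sham 1 and sham 2 (0.16). It was also lost with the second number of the sample titles as a covariate (0.094). The meaning of that number is not stated, and it runs partly with the groups. With it, Tlr3 differed by 0.41 (SE 0.13).

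Tlr7, which senses single-stranded RNA, read 6.80, 6.90, 6.48 and 6.75 after SCI and 5.20, 4.81, 5.44 and 5.61 after sham. Every SCI array was well above every sham array, and the sham arrays were the more spread. The mean went from 5.26 ± 0.35 to 6.73 ± 0.18 (SD, n = 4 each), a difference of 1.47 (SE 0.17, 95% interval 1.10 to 1.84, adjusted p 3.4e-04 in limma). Of 5 Toll-like receptors outside the 10 genes, 1 was called: Tlr13, the rodent receptor of bacterial ribosomal RNA, rose by 1.82 (SE 0.13, 3.53-fold, adjusted p 2.2e-05). Tlr12, a receptor of profilin, differed by 0.16 (adjusted p 0.51) and Tlr11 by -0.08, and Tlr8 is not analysed here.

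Endosomal receptors need escorts and proteases. Of 11 genes of receptor trafficking and processing, 6 rose, none fell (in limma, 1 at an unadjusted p under 0.05) and the median difference was 0.35. Unc93b1, which carries nucleic acid receptors from the endoplasmic reticulum to endosomes, rose by 1.52 (SE 0.14, adjusted p 9.3e-05). The proteases that cut receptor ectodomains and other endosomal cargo rose as well: Ctsk by 2.73, Ctsb by 1.48, Lgmn by 1.45, Ctsl by 0.87 and Ctss by 0.35. The Ctss call had an adjusted p of 0.041 and was lost in most of the other settings. The chaperone Hsp90b1, which folds many of the receptors, differed by -0.21 (unadjusted p 0.029, adjusted p 0.13).

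Myd88 joins most of the receptors to the Irak kinases. Its signal was 5.85, 6.12, 5.97 and 5.97 on the SCI arrays and 5.28, 5.41, 5.22 and 5.32 on the sham arrays. Arrays within each group lay close together and the groups did not overlap. The mean moved from 5.31 ± 0.08 to 5.98 ± 0.11 (SD, n = 4 each), a rise of 0.67 (SE 0.10, 95% interval 0.46 to 0.88, adjusted p 0.0012 in limma). Of 4 other adaptor genes, 2 rose. Pik3ap1 (BCAP), which links receptors to phosphoinositide 3-kinase, rose by 1.04 (SE 0.13, adjusted p 6.5e-04), and Ticam2 (TRAM), the bridge from Tlr4 to Ticam1, rose by 0.63 (SE 0.13, adjusted p 0.0096). Without SCI 3, sham 1 and sham 2, Ticam2 had an adjusted p of 0.12. Tirap, which recruits Myd88 to Tlr2 and Tlr4, differed by 0.28 (adjusted p 0.39), Sarm1 differed by -0.13, and Ticam1 is not analysed here.

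Over 9 lists of other genes of the pathway, 89 of 97 listed genes were tested, of which 30 (33.7%) were called higher and 1 lower, beside 7.10% and 7.06% of all genes. Their median difference was 0.28. Without SCI 3, sham 1 and sham 2, 21 were higher, where the count over all 18166 genes went from 1290 to 563. The share called ran from 6 of 9 transcription factors to 1 of 15 kinases and ubiquitin ligases, and no test compared the lists with each other.

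**Figure D2:**
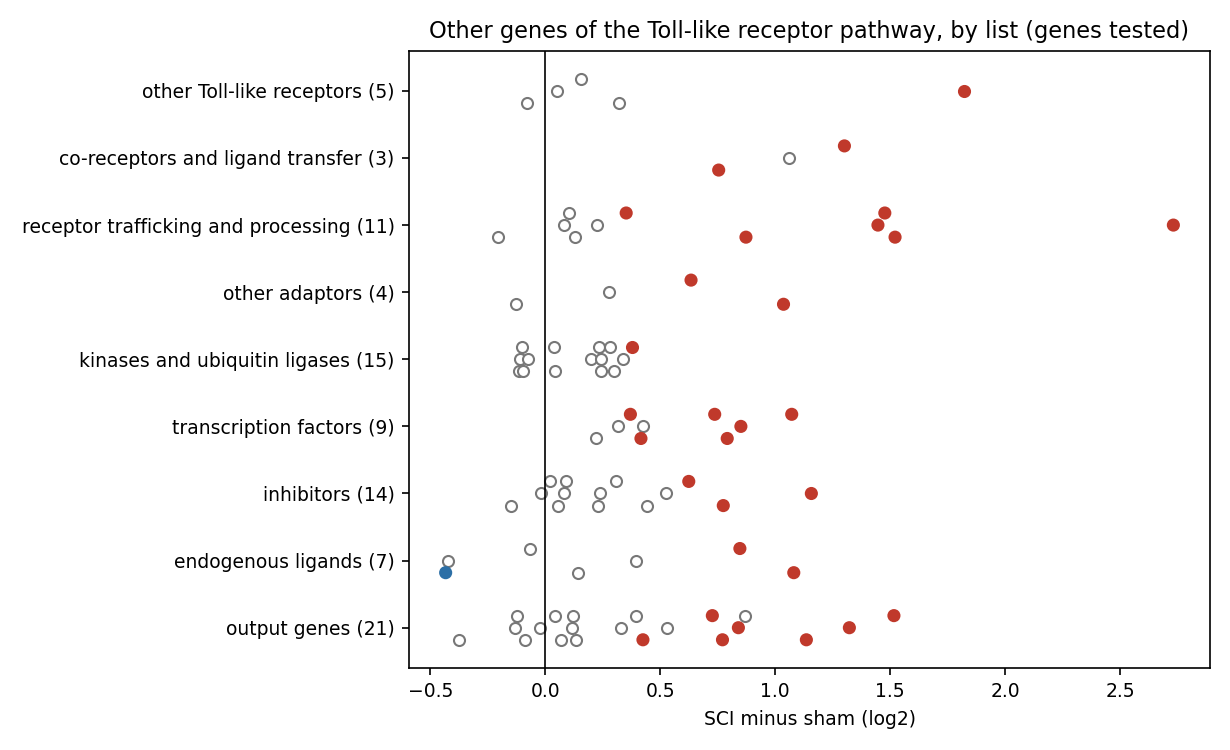
Each point is 1 tested gene of a pathway list, placed by its SCI minus sham difference on the log2 scale, and filled points passed an adjusted p of 0.05. Of 11 trafficking genes 6 passed and of 15 kinase genes 1 passed.

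Among 15 kinases and ubiquitin ligases, Tab2, a subunit of the kinase complex that follows Traf6, was called at 0.38 (adjusted p 0.018). Its call was lost without SCI 3, sham 1 and sham 2, without SCI 1 and with the title number as a covariate (adjusted p 0.055 to 0.18). Ikbkg (NEMO) differed by 0.34 (adjusted p 0.053) and Ikbke by 0.30 (0.12). Irak4, the first kinase to bind Myd88, differed by 0.28 (0.31), and without SCI 4 it passed with an adjusted p of 0.040. Traf6 differed by -0.10 (95% interval -0.31 to 0.11).

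Of 9 transcription factors 6 rose, with a list median of 0.43. Irf7, which drives type I interferon genes after Tlr7 and Tlr9, rose by 1.07 (SE 0.15, adjusted p 9.5e-04). Irf3, which follows Ticam1, differed by 0.22 (adjusted p 0.41). Irf8, a factor of the myeloid lineage, rose by 0.85 (adjusted p 5.7e-04), and Nfkb2 rose by 0.79 (0.0076, or 0.055 with the title number as a covariate). Irf5, a partner of Myd88, rose by 0.74 (adjusted p 0.0052), with 0.063 without SCI 3, sham 1 and sham 2. The remaining calls were Rela at 0.42 and Nfkb1 at 0.37, and both were lost in several settings, among them the one without the 3 arrays.

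Of 14 inhibitors 3 rose: the repressor Atf3 by 1.16, the cytokine signalling inhibitor Socs3 by 0.77 and the phosphatase Dusp1 by 0.62. Socs3 lost its call without SCI 2 or without sham 4 (adjusted p 0.052 to 0.056). Among 7 endogenous ligands, the matrix proteoglycan Bgn rose by 1.08 (SE 0.13, adjusted p 5.3e-04). Fn1 rose by 0.85 and the chaperone Hspd1 fell by 0.43, with adjusted p of 0.027 and 0.039, and these calls were lost in 7 and 9 settings. S100a8 and S100a9, which neutrophils carry, differed by 0.39 and 0.14 with adjusted p of 0.41 and 0.77.

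Of 21 output genes 7 rose and none fell (in limma, 1 at an unadjusted p under 0.05, Il12a at -0.37), with a median of 0.33. The costimulatory gene Cd86 rose by 1.52 (SE 0.19, adjusted p 6.3e-04), the chemokine gene Ccl3 by 1.32 (SE 0.15, adjusted p 3.2e-04) and the adhesion gene Icam1 by 1.14 (SE 0.16, adjusted p 9.7e-04). Ccl2, a monocyte attractant, rose by 0.77 (adjusted p 0.0081), with 0.053 without SCI 3, sham 1 and sham 2. The other called genes were Cd80 at 0.84, Ccl4 at 0.73 and Cd40 at 0.42. Without SCI 3, sham 1 and sham 2, Cd80 and Cd40 lost their calls (adjusted p 0.050 and 0.076), and Cd40 also in 5 other settings. On its dimmest probe set Cd80 differed by 0.06 (adjusted p 0.81), so its probe sets disagree. The classical cytokines were dim and not called: Il1b differed by 0.12 (95% interval -0.22 to 0.45), Tnf by 0.12 (-0.20 to 0.44) and Il6 by -0.02 (-0.26 to 0.21), with adjusted p of 0.70, 0.68 and 0.93.

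Marker lists of the cells that could carry these genes differed in how far they moved with the groups. All 8 pan-myeloid markers (Aif1, Csf1r, Itgam, Itgb2, Ptprc, Spi1, Laptm5 and Cd53) rose, with a median of 1.43, and their mean level was 6.03 to 6.19 on the sham arrays and 7.12 to 7.52 on the SCI arrays. Of 7 homeostatic microglia markers 3 rose (Cx3cr1, Gpr34 and P2ry13), with mean levels of 6.37 to 6.69 and 6.74 to 6.83. The others were not called and were split in sign. P2ry12 differed by 0.45, Tmem119 and Sall1 by -0.10 each. Selplg differed by -0.29 (unadjusted p 0.012, adjusted p 0.071 in limma), with every SCI array below every sham array. None of 5 monocyte markers was called in limma (0 at an unadjusted p under 0.05), and their levels overlapped at 5.14 to 5.78 and 4.89 to 5.88. Of 8 neutrophil markers 1 was called (Csf3r, 1.11), and the granule genes Mpo, Elane, Camp and Ngp were all below the median level of all genes and not called.

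**Figure D3:**
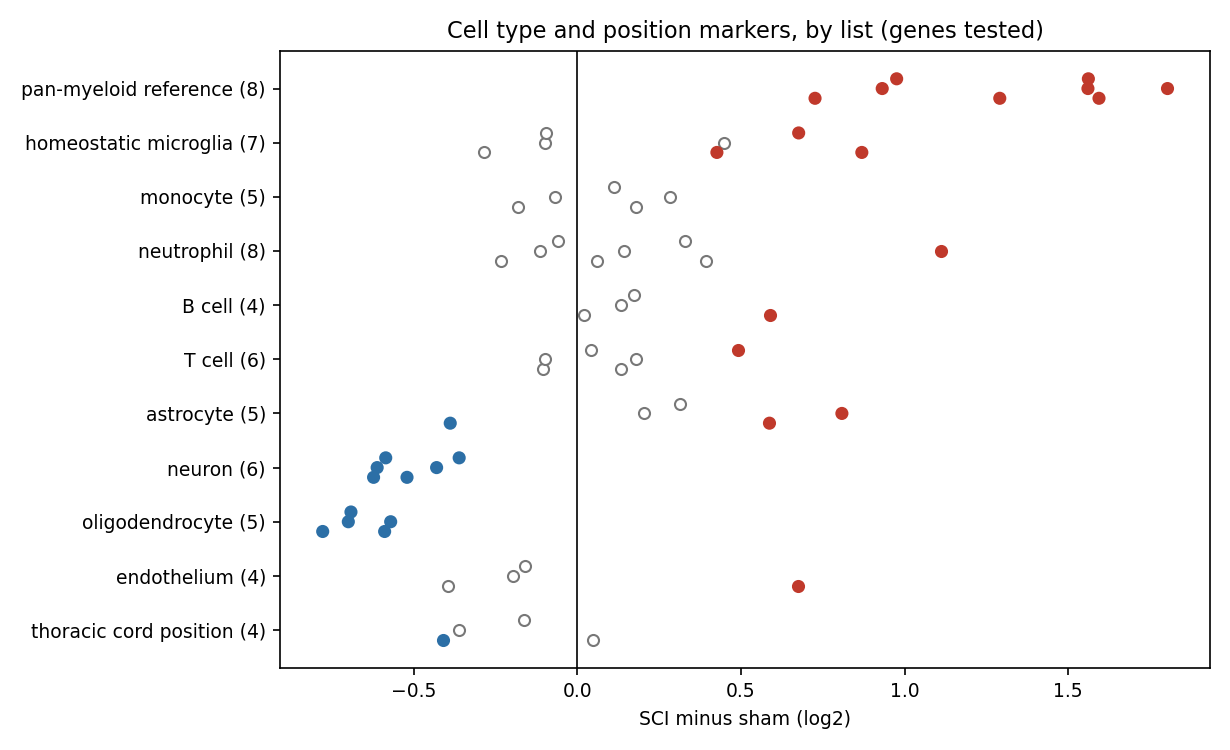
Each point is 1 tested marker gene, placed by its SCI minus sham difference on the log2 scale within its list, and filled points passed an adjusted p of 0.05. All 8 pan-myeloid points are filled and above 0, and all 6 neuron and 5 oligodendrocyte points are filled and below 0.

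Lymphocyte markers were dim, with 1 of 4 B cell markers (Cd22, 0.59) and 1 of 6 T cell markers (Cd3g, 0.49) called higher. The called astrocyte markers split in sign, with Gfap and Gja1 higher and Slc1a2 lower. Slc1a3 (0.31) and Aqp4 (0.20) were not called, with adjusted p of 0.070 and 0.25 in limma. For both, every SCI array lay above every sham array. All 6 neuron markers and all 5 oligodendrocyte markers tested fell, with medians of -0.55 and -0.69. Of 4 endothelial markers Cdh5 rose by 0.68, while Flt1 (-0.40), Cldn5 (-0.20) and Tek (-0.16) lay below 0 and were not called. Of the 4 Hox genes Hoxa7 fell by 0.41. Hoxb8 differed by -0.36 (adjusted p 0.084 in limma), Hoxc9 by -0.16 and Hoxc8 by 0.05. The part of these shifts in the differences of the receptor genes was not tested.

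To set each gene beside the myeloid signal of the same array, the mean of the 8 pan-myeloid markers was subtracted on every array. That mean rose by 1.31, from 6.08 ± 0.07 to 7.38 ± 0.18 (SD, n = 4 each). On this relative scale 0.369% of all other genes were called higher and 98.4% lower, so a lower call is near the background and says nothing particular of a gene. The subtraction also puts the error of the markers into every gene.

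**Figure D4:**
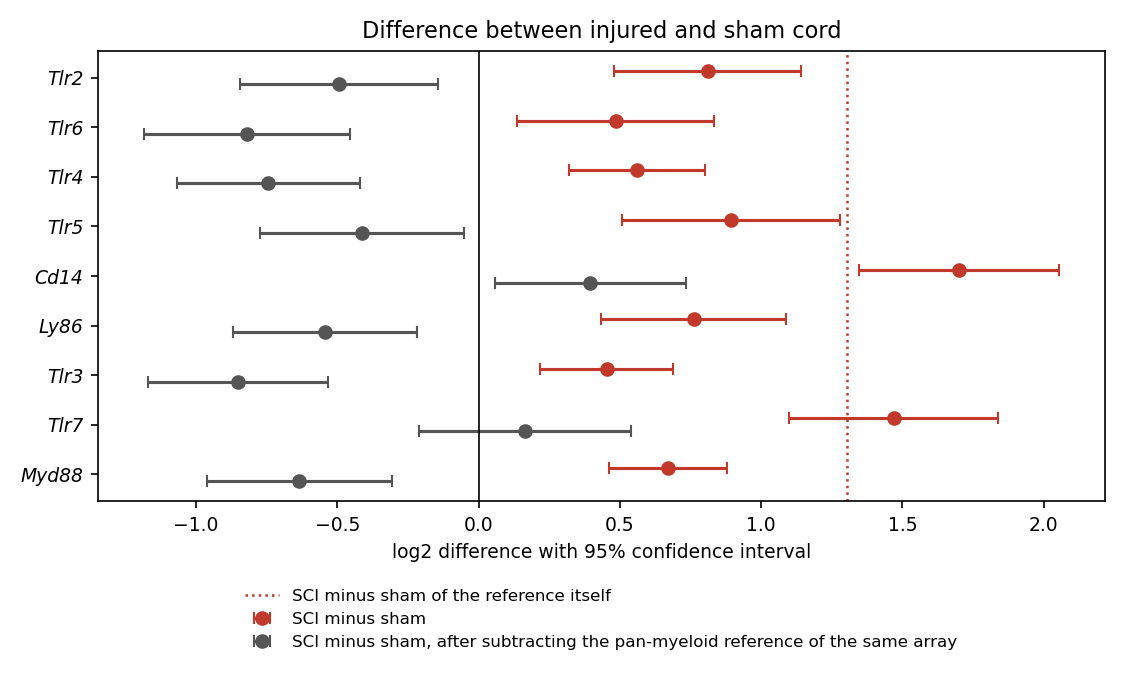
For each of the 9 genes, the SCI minus sham difference on the log2 scale is shown with its 95% interval, as measured and relative to the mean of the pan-myeloid markers. As measured, all differences are above 0; relative to the markers, Cd14 and Tlr7 alone are above 0 and the interval of Tlr7 crosses it.

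Cd14 was the 1 gene of the 9 called higher on the relative scale, by 0.39 (95% interval 0.06 to 0.73, adjusted p 0.025 in limma). Its relative values were -0.69, -0.13, -0.62 and -0.40 on the SCI arrays and -0.92, -0.98, -0.69 and -0.82 on the sham arrays. The groups met at -0.69, where SCI 1 and sham 3 differed only in the fourth decimal. The call was lost when SCI 2, sham 1 or sham 2 was left out alone, and when the 3 arrays apart on the second component were left out together (adjusted p 0.059 to 0.18). Tlr7 differed by 0.16 relative to the markers (95% interval -0.21 to 0.54, adjusted p 0.38), and its groups overlapped.

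The other 7 genes were called lower relative to the markers. The relative difference was -0.85 for Tlr3, -0.82 for Tlr6, -0.75 for Tlr4, -0.63 for Myd88, -0.54 for Ly86, -0.49 for Tlr2 and -0.41 for Tlr5. Tlr2 differed by -0.23 and Tlr5 by -0.22 without SCI 3, sham 1 and sham 2, with adjusted p of 0.38 and 0.40. Tlr5 lost its call in 6 settings in all (adjusted p 0.053 to 0.40). With the homeostatic microglia markers as the reference, whose mean was higher by 0.28, all 9 differences were above 0 and 6 were called higher, beside 3.21% of all other genes called higher and 28.5% lower. The sign for these 7 genes thus depended on the myeloid markers chosen.

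The genes nearest in pattern were found for each called gene by the root mean square distance over the 8 arrays, with each gene centred on its own sham mean. For Cd14 they were Soat1, an enzyme of cholesterol ester formation, at a distance of 0.11 and Srebf1, a regulator of lipid synthesis, at 0.12. Soat1 rose by 1.62 (SE 0.13). For Tlr7 they were Capg, an actin capping protein, and Otulinl, both at 0.19. Myd88 lay nearest to Ech1 (0.071) and Tln1 (0.079), and Ly86 to Cpxm2 (0.072) and Vwa5a (0.074). Tlr4 lay nearest to Bmp6 (0.048) and Atp6v0e1 (0.061), and Tlr3 to Bmp4 (0.078) and Pml (0.080). The immediate early gene Egr1 was nearest to both Tlr2 (0.068) and Tlr5 (0.13), ahead of Gne (0.13) and Tmem86a (0.14). Each choice is made over 8 arrays and the 18166 genes tested, without the listed ones, and is a description only.

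**Figure D5:**
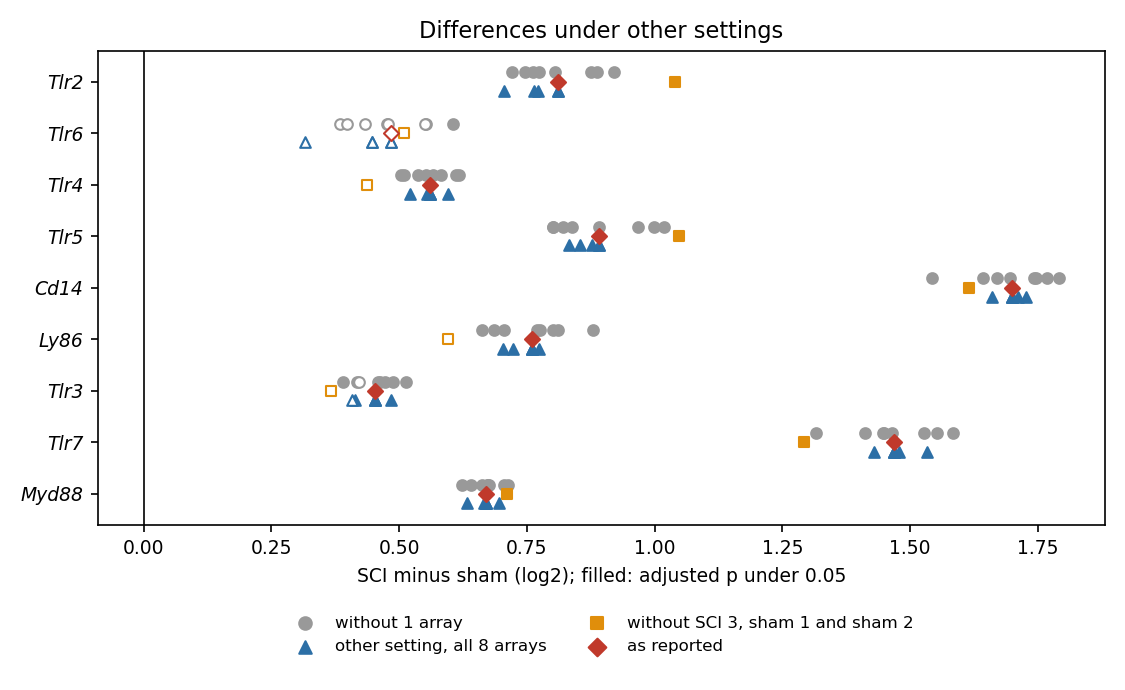
For each of the 9 genes, points give the SCI minus sham difference on the log2 scale under the settings run, with filled points for an adjusted p under 0.05. Every point is above 0, and Tlr3, Tlr4, Tlr6 and Ly86 have both open and filled points.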

How the data were processed

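RNA was extracted with TRIzol and cleaned on columns before biotin labelling, per the labels' protocols. The authors deposited log2 values, for which the submitters' processing notes name RMA (robust multi-array averaging) and the Affymetrix Expression Console. No source used here gives versions, settings or a genome build, and RMA tends to compress differences of dim probe sets. Of 36685 probe sets, 18511 had 1 gene symbol, 575 several and 17599 none, and only the first were used. For 291 genes with several probe sets the probe set of highest mean signal was kept, leaving 18166 genes. Groups were compared with lmFit and eBayes of limma 3.58.1 (R 4.3.3) without covariates. Benjamini-Hochberg adjustment ran over all genes, with a threshold of 0.05. The script was tested on simulated data with the sham means and the spreads of these genes. It called 18 of 50 genes shifted by 0.5 and 42 of 50 shifted by 1. For shifts of -0.5 and -1 it called 11 and 44 of 50. Most shifts of 0.5 in either direction were thus missed in that simulation, where only these genes were shifted. The number of arrays limits the precision. Alternatives covered probe set choice, centring, quantile normalization, a filter on dim genes, eBayes settings, a covariate and left-out arrays. Named genes were all 10 listed genes, the 3 smallest p of each pathway list and a fixed set of pathway genes. To these came the 2 nearest profiles of each called gene, taken outside the 10 listed genes. Further called list genes, Tlr11, Tlr12, Sarm1, Irf3 and the S100 genes were named after their values were seen. The genes and lists were chosen with earlier results of these data known. Promoters are RefSeq sequences of GRCr8. The motifs searched in them were chosen after the data were seen.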

Additional observations from a re-analysis of the deposited data

Results flagged for a closer look

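In 3 of 88 groups of 4 arrays, 1 array lay far from the others of its group, measured as its gap to the nearest array over the group's whole range. Chance marks about 1 in 20 groups. Cd14 on SCI 2 was 7.39, where the other SCI arrays read 6.72 to 6.80, with a gap of 0.89 of the range. Ccl3 on sham 2 was 3.48, where the other sham arrays read 3.14 to 3.19, with a gap of 0.836 of the range. Il6 on SCI 1 was 2.69, where the other SCI arrays read 2.46 to 2.50, with a gap of 0.845 of the range. Cd14 and Ccl3 were called with and without these arrays, and Il6 in neither case.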

How the results depend on the processing

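Of 783 values of single genes under another setting, 730 kept their side of the threshold, 41 lost their call and 5 gained one. The other 7 changed sign with a call before or after the change. Sign changes of genes called in neither setting are counted among the 730. Without SCI 3, sham 1 and sham 2, the genes called higher fell from 8 to 5 of 9 and the counts over all genes went from 1290 higher and 1282 lower to 563 and 284. With the second title number as a covariate they were 813 and 543. Leaving out 1 array gave 7 to 9 genes called higher, and over all genes 923 to 1257 higher and 780 to 1283 lower, with the lowest count of 780 without SCI 2. The 1 pathway gene called lower became 0 after quantile normalization, without the 3 arrays and with the covariate, 2 among brighter genes only and with an intensity trend, and 0 to 2 without 1 array. Relative to the pan-myeloid markers, 1 gene called higher became 0 without the 3 arrays and 0 to 1 without 1 array, and 7 called lower became 4 among brighter genes only, where 3 genes were not tested. With homeostatic microglia markers 6 were higher and 0 lower, beside 3.21% and 28.5% of all other genes, and the values that changed sign were Tlr2 0.53, Tlr3 0.18, Tlr4 0.28, Tlr5 0.62, Tlr6 0.21, Ly86 0.48 and Myd88 0.39. The causes of these changes were not tested. No paired analysis was possible because the numbers in the sample titles are not shared between the groups and their meaning is not stated. With only 8 arrays precision is limited, and the calls of Tlr3, Tlr4, Tlr6 and Ly86 changed with the arrays included.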

Other observations

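SCI 4 was the lowest of the SCI arrays for 5 of the 9 genes (Tlr3, Tlr5, Tlr6, Cd14 and Ly86), and it also had the lowest mean of the 8 pan-myeloid markers, 7.12 against 7.41 to 7.52 on the other SCI arrays. Among the sham arrays, sham 3 had the highest mean of these markers, 6.19 against 6.03 to 6.06, and was the highest for 3 genes (Tlr4, Cd14 and Ly86). Sham 2 was also the highest for 3 genes, sham 1 for 2 and sham 4 for 1. This pattern was seen in the data and was not tested.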
